A study of Mus musculus with 6 samples.

Results

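Collagen folding, hydroxylation and cross-linking enzymes were examined in CD73+ and CD73- adipose-derived mesenchymal stem cells (AD-MSCs). The 10 genes listed were Lox, Loxl1, Loxl2, Loxl3, Plod1, Plod2, P4ha1, P4ha2, Serpinh1 and Bmp1, and a gene was read only from probe sets annotated to that gene and no other. By this rule 18 of the 45037 probe sets tested belonged to the group, and they measured 9 of the 10 genes. Loxl2 had no probe set of its own, since both probe sets that carry its name were also annotated to Gm21451.

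The study examined CD73+ AD-MSCs as cells for transplantation after myocardial infarction, and compared their transcripts with those of CD73- AD-MSCs as a step of their description. CD73 is an ectoenzyme that turns AMP into adenosine. There were 3 arrays of CD73+ AD-MSCs and 3 arrays of CD73- AD-MSCs. Both groups came from the groin fat of adult C57BL/6 mice, were separated by flow cytometry for CD73, were grown in low sugar DMEM with fetal bovine serum and were taken at the fifth passage. Neither group carried a transgene, a knockout or a drug treatment in the labels, and nothing stated whether the 3 arrays of a group came from separate mice or cultures, so the p-values measure only the spread between arrays, which may be technical.

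Procollagen chains are modified in the endoplasmic reticulum before they fold. Prolyl 4-hydroxylases make the hydroxyproline that stabilizes the triple helix, lysyl hydroxylases make the hydroxylysine that carries sugars and later cross-links, and the chaperone HSP47, the product of Serpinh1, binds the folded helix. Outside the cell BMP1 removes the C-terminal propeptide, and lysyl oxidases convert lysine and hydroxylysine of the assembled fibril to aldehydes that join neighbouring molecules. Stromal cells of fat are among the cells that lay down fibrillar collagen.

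A probe set is a group of short probes that reads the same transcript, and its value here was a normalized log2 signal. A gene was called higher or lower in CD73+ cells at an adjusted p under 0.05 in a limma fit across all probe sets. On this log2 scale the tested probe sets ranged between 2.02 and 14.09 and the arrays had medians of 5.28 to 5.37. Nt5e, the gene of CD73, had 7.84, 7.60 and 7.74 in CD73+ cells and 7.29, 6.39 and 6.84 in CD73- cells where it was brightest, which differ by 0.88 (adjusted p = 0.0218, limma). Both groups lay above the array medians, and the call was lost without CD73- array 3 (adjusted p = 0.0569), CD73+ array 1 (0.0763) or CD73+ array 3 (0.0564). It was also lost with the mean of its 3 probe sets (0.27, adjusted p = 0.137) and with the methods' t-test (adjusted p = 0.127), and 2 of the 3 probe sets of Nt5e did not pass in the limma fit. Of stromal cell markers 5 of 8 measured were higher in CD73+ cells, Nt5e and Col1a1 among them, with a list mean of 9.59 to 9.63 on CD73+ arrays and 9.11 to 9.17 on CD73- arrays. All 5 markers of dividing cells were higher, where 10.1% of all genes were higher and 12.6% lower. Their list mean was 9.64 to 9.68 on CD73+ arrays and 8.93 to 9.06 on CD73- arrays. Markers of endothelial cells (0 of 5 passed, 4.36 to 4.45 in CD73+ and 4.29 to 4.39 in CD73- cells), adipocytes (0 of 4, 3.75 to 3.79 in CD73+ and 3.76 to 3.83 in CD73- cells) and mural cells (0 of 5, 6.84 to 6.90 in CD73+ and 6.80 to 6.86 in CD73- cells) did not pass on their brightest probe sets. On all probe sets of a gene, 2 of 3 for Acta2 of the mural list and 2 of 4 for Fabp4 of the adipocyte list were higher, and 1 of 2 for Cspg4 of the mural list was lower. Leukocyte markers averaged 4.99 to 5.08 in CD73+ and 4.80 to 4.87 in CD73- cells. Of 6 measured, Csf1r (0.49) and Cd14 (0.50) were higher, while Ptprc, the defining marker of leukocytes, lay at 2.99 to 3.15 in CD73+ and 3.09 to 3.34 in CD73- cells. Of 4 epithelial and mesothelial markers Msln was higher by 0.61, with a list mean of 4.84 to 4.95 in CD73+ and 4.56 to 4.64 in CD73- cells. The 12 probe sets of the poly-A spike-in controls had 7.76 ± 0.07 on CD73+ arrays and 8.69 ± 0.04 on CD73- arrays (SD, n = 3 each). All differences below are on the deposited scale, and rescaling to these controls moves the median of all probe sets up by 0.93 and makes every difference of a gene named below positive on its brightest probe set. The beta-actin 3'/5' log2 ratio was 0.08 ± 0.01 in CD73+ and 0.19 ± 0.03 in CD73- cells. The part of these measures in the results was not tested, and in bulk RNA a different share of cells and a different amount of RNA per cell cannot be told apart.

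Most of the measured genes of this machinery were higher in CD73+ AD-MSCs by a moderate amount, and none was lower past the threshold. On the brightest probe set 8 of 9 genes rose, with fold changes of 1.19 to 1.59, and Plod2 was the exception. Over all genes 10.1% were called higher and 12.6% lower in CD73+ cells. Among genes at least as bright as the dimmest of the 9, 17.5% were called higher. The median log2 difference of the 9 genes was 0.49, against -0.02 for all 18193 genes and -0.04 for the equally bright genes. The mean of the 9 genes was 10.02 to 10.08 on CD73+ arrays and 9.55 to 9.64 on CD73- arrays. At the level of probe sets 13 of 18 rose and 0 fell, where 9.79% of all probe sets were called higher and 9.11% lower. In 15 of the 18, all 3 CD73+ arrays lay above all 3 CD73- arrays, which held for 17.7% of all probe sets. Of the 5 that did not pass, 3 were dimmer than the highest array median, and the other 2 belonged to Plod2 and Loxl1.

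**Figure D1:**
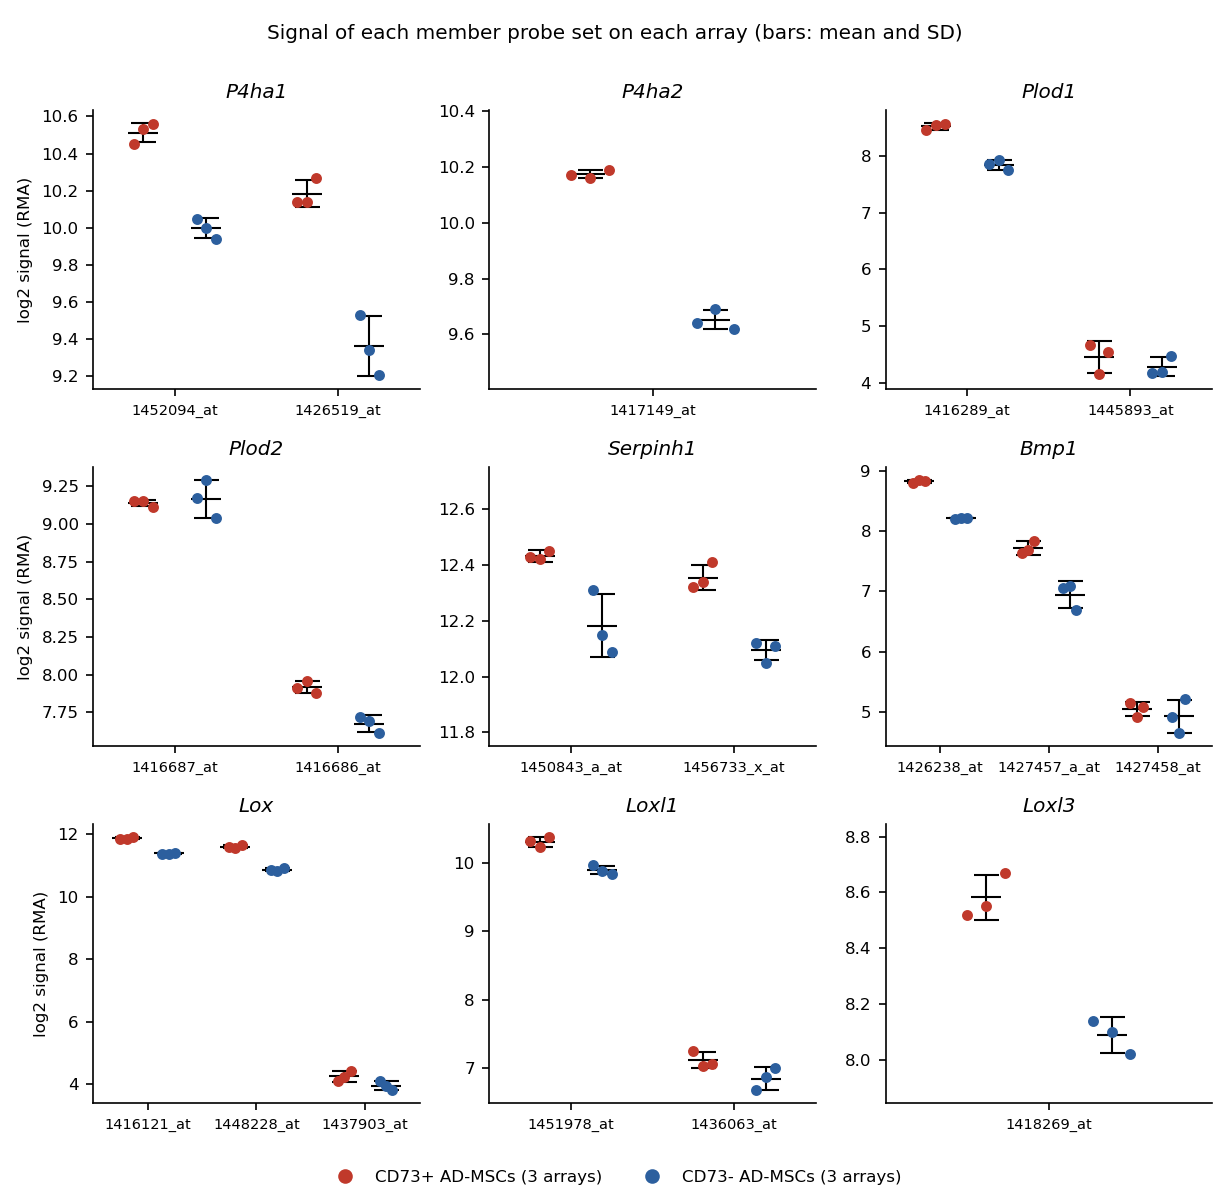
Log2 signal (y axis, a separate range in each panel) of the 18 probe sets on each array, by gene. Points are arrays, CD73+ left and CD73- right of each pair, and bars give the mean and SD of 3 arrays. The CD73+ arrays lie above the CD73- arrays without overlap in 15 probe sets.

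P4ha1 and P4ha2 encode catalytic alpha subunits of prolyl 4-hydroxylase, which work in a complex with the beta subunit P4hb. Both rose in CD73+ AD-MSCs. The brightest P4ha1 probe set (1452094_at) had 10.45, 10.53 and 10.56 in CD73+ cells and 10.05, 10.00 and 9.94 in CD73- cells. All CD73+ arrays were above all CD73- arrays, with a difference of 0.51 (SE 0.06, adjusted p = 0.00139, limma), a 1.43-fold rise. The second P4ha1 probe set (1426519_at) had 10.14, 10.14 and 10.27 in CD73+ cells and 9.53, 9.34 and 9.21 in CD73- cells. It gave a larger difference of 0.82 (SE 0.09, adjusted p = 0.0011, limma), so the size of the P4ha1 rise depended on the probe set and its direction did not. P4ha2 (1417149_at) had 10.17, 10.16 and 10.19 in CD73+ cells and 9.64, 9.69 and 9.62 in CD73- cells. These arrays did not overlap either, and the difference was 0.52 (SE 0.05, adjusted p = 0.00081, limma). On the brightest probe sets the log2 ratio of the P4ha1 signal to the P4ha2 signal within an array was 0.34 ± 0.05 in CD73+ and 0.35 ± 0.06 in CD73- cells (SD, n = 3 each). These ratios overlapped and differed by -0.01 (two-sided exact permutation test, p = 1, where 0.1 is the smallest that 3 against 3 arrays allow). With the second P4ha1 probe set the ratio was 0.01 ± 0.06 in CD73+ and -0.29 ± 0.16 in CD73- cells, higher by 0.30 without overlap (p = 0.1, same exact test), so the ratio of the pair depended on the probe set.

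Promoters of genes of the group are shown with cores of the form ACGTG and GCGTG, which hypoxia-inducible factors bind. These factors are a known class of regulators of prolyl and lysyl hydroxylases. Their part in the differences seen here was not tested. RefSeq sequences (GRCm38.p6, 250 bases before the gene start) are shown for 4 of the 10 genes. Entries on the chromosome of Lox were left out of the search for the listed genes, so no Lox promoter is shown. The shares over all windows given below include that chromosome. Each sequence is written 5′ to 3′ on the strand of the gene. Capitals mark every ACGTG and GCGTG, and their reverse complements where the match lies on the other strand.
P4ha1, chr10:59323046-59323295, plus strand: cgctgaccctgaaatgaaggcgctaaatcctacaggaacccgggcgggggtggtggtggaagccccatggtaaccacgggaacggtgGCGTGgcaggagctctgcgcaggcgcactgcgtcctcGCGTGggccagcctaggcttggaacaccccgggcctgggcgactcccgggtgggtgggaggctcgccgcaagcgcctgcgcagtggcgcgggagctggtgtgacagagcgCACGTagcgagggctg
P4ha2, chr11:54100674-54100923, plus strand: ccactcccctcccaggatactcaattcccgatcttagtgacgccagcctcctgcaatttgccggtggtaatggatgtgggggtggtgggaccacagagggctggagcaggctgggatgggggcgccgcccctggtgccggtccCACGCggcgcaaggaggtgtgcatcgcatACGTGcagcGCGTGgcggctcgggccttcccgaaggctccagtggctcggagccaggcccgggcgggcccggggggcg
Plod1, chr4:147936777-147937026, minus strand: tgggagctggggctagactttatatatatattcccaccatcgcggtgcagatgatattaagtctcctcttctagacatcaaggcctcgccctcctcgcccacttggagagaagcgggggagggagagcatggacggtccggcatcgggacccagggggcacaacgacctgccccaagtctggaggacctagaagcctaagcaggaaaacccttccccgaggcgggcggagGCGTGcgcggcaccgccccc
Serpinh1, chr7:99353240-99353489, minus strand: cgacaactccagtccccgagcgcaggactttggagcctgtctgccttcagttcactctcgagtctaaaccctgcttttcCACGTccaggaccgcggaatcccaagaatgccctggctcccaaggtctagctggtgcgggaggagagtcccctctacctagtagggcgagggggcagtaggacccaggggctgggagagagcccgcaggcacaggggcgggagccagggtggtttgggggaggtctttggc
P4ha1 held 1 ACGTG, 12 to 16 bases before the start on the other strand, and 2 GCGTG. P4ha2 held 1 ACGTG at 74 to 78 bases and 2 GCGTG. Plod1 held a GCGTG alone, at 16 to 20 bases, and Serpinh1 an ACGTG alone, at 167 to 171 bases on the other strand. Of all 32851 promoter windows of the same length, searched on both strands, 16.6% held ACGTG, 28.2% held GCGTG and 38.6% held either. The 4 windows had 61.6 to 70.0% G and C, against 53.2% over all windows, and letters alone mark no bound site.

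Plod1 and Plod2 encode lysyl hydroxylases that act on different parts of the collagen chain. The helix is the usual substrate of the Plod1 product, and the Plod2 product hydroxylates the telopeptides at the ends. Plod1 gave the largest rise among the brightest probe sets of the 9 genes, while Plod2 did not pass on its brightest probe set. Plod1 (1416289_at) had 8.44, 8.54 and 8.56 in CD73+ cells and 7.86, 7.92 and 7.75 in CD73- cells. The lowest CD73+ array was above the highest CD73- array, and the difference was 0.67 (SE 0.07, adjusted p = 0.000798, limma), or 1.59-fold. A second, dim Plod1 probe set (1445893_at) had 4.68, 4.16 and 4.56 in CD73+ cells and 4.19, 4.20 and 4.49 in CD73- cells. Those values overlapped, and the difference of 0.17 did not pass (adjusted p = 0.506, limma).

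The brightest Plod2 probe set (1416687_at) had 9.15, 9.15 and 9.11 in CD73+ cells and 9.17, 9.29 and 9.04 in CD73- cells. The groups overlapped, with CD73- arrays on both sides of all CD73+ arrays, and the difference was -0.03 (SE 0.07, adjusted p = 0.851, limma). The second Plod2 probe set (1416686_at) had 7.91, 7.96 and 7.88 in CD73+ cells and 7.72, 7.69 and 7.61 in CD73- cells. There the groups did not overlap and the difference of 0.24 passed (SE 0.06, adjusted p = 0.0263, limma), so the probe sets of Plod2 disagreed. That call was lost in 4 of the 6 fits that left out an array, those without CD73+ array 1 or 2 or CD73- array 2 or 3, with adjusted p between 0.0450 and 0.1 over the 6 fits. On the brightest probe sets Plod1 minus Plod2 within an array was -0.71 to -0.55 in CD73+ and -1.37 to -1.29 in CD73- cells. These log2 ratios did not overlap and had shifted by 0.70 towards Plod1, with p = 0.1 in a two-sided exact permutation test, the smallest that 3 against 3 arrays allow, and p = 0.5 after adjustment over the 5 pairs of related genes compared. With the second Plod2 probe set the shift was 0.43, also without overlap (p = 0.1, same exact test).

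Serpinh1, the collagen chaperone gene, changed the least of the genes that passed. The probe set 1450843_a_at had 12.43, 12.42 and 12.45 in CD73+ cells and 12.31, 12.15 and 12.09 in CD73- cells. All CD73+ arrays were higher, CD73- array 1 coming nearest, and the difference was 0.25 (SE 0.07, adjusted p = 0.0469, limma), or 1.19-fold. The other probe set (1456733_x_at), of a type that can share probes with related transcripts, had 12.32, 12.34 and 12.41 in CD73+ cells and 12.12, 12.05 and 12.11 in CD73- cells. It gave 0.26 (SE 0.06, adjusted p = 0.0170, limma). The first call held in 1 of the 6 fits that left out an array, the one without CD73- array 1, and adjusted p ranged from 0.0230 to 0.142. The call of the other probe set was lost without CD73+ array 1, CD73+ array 2 or CD73- array 2, with a range of 0.0331 to 0.0694, and the difference stayed positive in every such fit of both.

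Bmp1, the gene of the proteinase that removes the C-propeptide of fibrillar procollagens and also activates prolysyl oxidase, rose on both of its brighter probe sets. The brightest (1426238_at) had 8.80, 8.85 and 8.83 in CD73+ cells and 8.21, 8.22 and 8.22 in CD73- cells. Replicates lay within a few hundredths of each other, far less than the difference of 0.61 (SE 0.05, adjusted p = 0.000427, limma), or 1.53-fold. The next (1427457_a_at) had 7.63, 7.69 and 7.84 in CD73+ cells and 7.05, 7.09 and 6.70 in CD73- cells, without overlap, and gave 0.77 (SE 0.12, adjusted p = 0.00367, limma). A dim probe set (1427458_at) had 5.15, 4.92 and 5.09 in CD73+ cells and 4.92, 4.65 and 5.21 in CD73- cells. It overlapped between the groups and did not pass, at 0.13 (adjusted p = 0.62, limma).

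The lysyl oxidases Lox, Loxl1 and Loxl3 all rose on their brightest probe sets. Lox encodes the founding member of the copper-dependent family. Its brightest probe set (1416121_at) had 11.87, 11.86 and 11.93 in CD73+ cells and 11.39, 11.39 and 11.42 in CD73- cells. The arrays of a group were close together and the groups did not overlap, with a difference of 0.49 (SE 0.05, adjusted p = 0.00114, limma). A second (1448228_at) had 11.60, 11.57 and 11.67 in CD73+ cells and 10.85, 10.84 and 10.94 in CD73- cells, and gave 0.74 (SE 0.06, adjusted p = 0.000355, limma), or 1.67-fold. The third (1437903_at) was the dimmest of the 18, with 4.11, 4.22 and 4.43 in CD73+ cells and 4.10, 3.96 and 3.81 in CD73- cells. Its groups nearly touched, and 0.30 did not pass (adjusted p = 0.103, limma).

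Loxl1, whose product is best known for work on elastic fibres, had 10.32, 10.24 and 10.39 in CD73+ cells and 9.97, 9.89 and 9.85 in CD73- cells on 1451978_at. Each CD73+ array was above each CD73- array, and the difference was 0.41 (SE 0.06, adjusted p = 0.00446, limma). Its second probe set (1436063_at) had 7.25, 7.03 and 7.05 in CD73+ cells and 6.67, 6.86 and 7.0 in CD73- cells, and the 0.27 did not pass (adjusted p = 0.111, limma) although the arrays did not overlap. Loxl3, a relative with a set of scavenger receptor domains, had 8.52, 8.55 and 8.67 in CD73+ cells and 8.14, 8.10 and 8.02 in CD73- cells on its 1 probe set (1418269_at). There was no overlap, and the difference of 0.49 (SE 0.07, adjusted p = 0.00250, limma) was close to that of Lox.

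Log2 ratios within the lysyl oxidase family depended on the probe set. On the brightest probe sets Lox minus Loxl1 changed by 0.07 (two-sided exact permutation test, p = 0.3), Lox minus Loxl3 by -0.01 (p = 1, same test) and Loxl3 minus Loxl1 by 0.08 (p = 0.2, same exact test, 0.5 after adjustment over 5 pairs), in a design where no p can be below 0.1. With the second Lox probe set (1448228_at) Lox minus Loxl1 changed by 0.33 and Lox minus Loxl3 by 0.25, each without overlap (p = 0.1, same exact test). The probe sets annotated to both Loxl2 and Gm21451 fall outside the rule, and no gene was named from them. They had 10.80, 10.82 and 10.91 in CD73+ cells and 10.20, 10.27 and 10.26 in CD73- cells on 1431004_at, and 9.47, 9.54 and 9.53 in CD73+ cells and 9.10, 9.03 and 8.94 in CD73- cells on 1452436_at. Both were higher without overlap, by 0.60 (adjusted p = 0.000749, limma) and 0.49 (adjusted p = 0.00208, limma), and which transcript they follow cannot be told apart.

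Of the 13 probe sets of the group that passed, 10 passed in all 6 fits that left out an array in turn. On the brightest probe sets this held for 7 genes, all of those that passed but Serpinh1. The highest adjusted p in those fits was 0.0229 for Loxl1 (limma), 0.0132 for Loxl3 and 0.00895 for P4ha1. Bmp1 and Plod1 stayed between 0.00217 and 0.00364 and between 0.00290 and 0.00557.

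**Figure D2:**
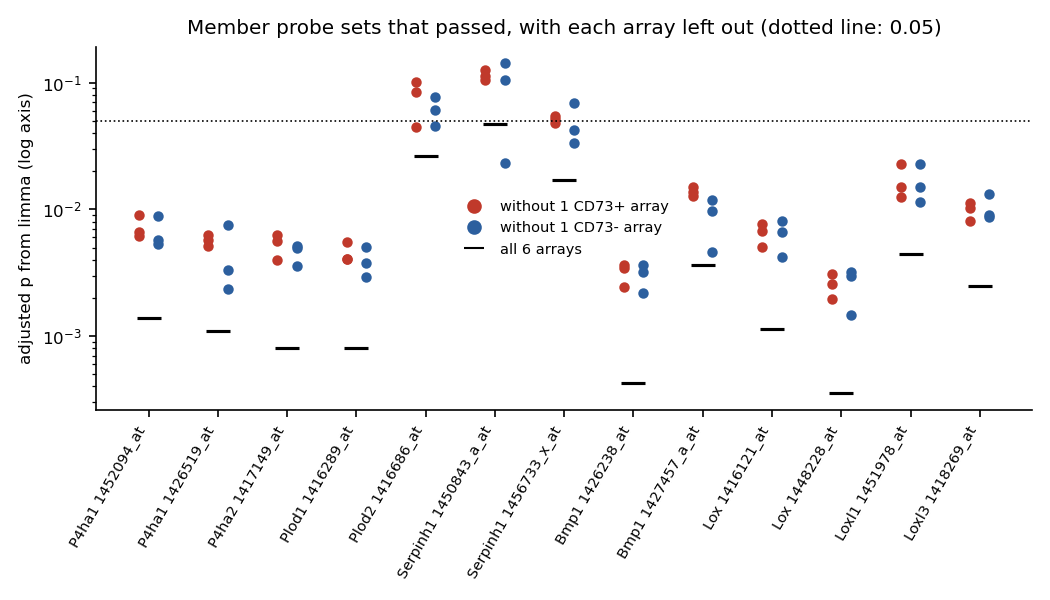
Adjusted p from limma (y axis, log scale) for the member probe sets that passed, with all 6 arrays (bars) and with 1 CD73+ array or 1 CD73- array left out (points, left and right of each bar). The points above the dotted line at 0.05 belong to Plod2 1416686_at and to the Serpinh1 probe sets.

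Other genes of collagen modification, taken from a list written with earlier results of these data known, were mostly higher as well. Of 28 genes listed 25 were measured, 16 rose, 2 fell and 7 did not pass, with a median difference of 0.40. The shares over all genes were 10.1% higher and 12.6% lower. Other subunits of the prolyl 4-hydroxylases moved as P4ha1 and P4ha2 did. P4hb, the beta subunit, averaged 12.38 ± 0.04 in CD73+ and 11.79 ± 0.04 in CD73- cells (SD, n = 3 each), a difference of 0.59 (adjusted p = 0.00062, limma), and P4ha3, a further alpha subunit, rose by 0.60 (adjusted p = 0.000833, limma). Of the 6 genes that the list set under prolyl 3-hydroxylation, 5 rose. They were P3h4 (0.79), Crtap (0.55), P3h3 (0.46), P3h1 (0.40) and Ppib (0.29), and P3h2 was at 0.20 (adjusted p = 0.208, limma). All 3 measured FK506-binding isomerases of the endoplasmic reticulum rose, namely Fkbp14 (0.87), Fkbp7 (0.67) and Fkbp9 (0.52), although the second probe sets of Fkbp14, Fkbp7 and Ppib did not pass.

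Plod3, the lysyl hydroxylase that also transfers glucose, rose by 0.34 (SE 0.05, adjusted p = 0.00501, limma), between Plod1 and the brightest Plod2 probe set. Colgalt1, which adds galactose to hydroxylysine, rose by 0.44 (adjusted p = 0.00447, limma), and its relative Colgalt2 was at 0.04 (adjusted p = 0.841, limma). Beside Bmp1, both enhancers of its cleavage of procollagen rose. Pcolce2 was the gene with the largest difference among the 25, at 9.65 ± 0.05 in CD73+ and 8.29 ± 0.12 in CD73- cells (SD, n = 3 each), a rise of 1.36 (SE 0.07, adjusted p = 0.000128, limma). Pcolce rose by 0.70 (adjusted p = 0.000684, limma) on its brightest probe set and by 0.97 on the other. Tll1, a proteinase of the Bmp1 family, was dim at 4.30 ± 0.03 in CD73+ and 4.59 ± 0.14 in CD73- cells and fell by 0.29 (adjusted p = 0.0393, limma) on the deposited scale, not on that of the poly-A controls. Tll2 was at 0.03 and Adamts3, an N-propeptidase, at -0.04, and neither passed. A second Adamts3 probe set, with 2.55 ± 0.05 in CD73+ and 2.81 ± 0.04 in CD73- cells (SD, n = 3 each), was lower on the deposited scale (-0.25, adjusted p = 0.0201, limma), at a level near the lowest on the arrays.

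Genes of export were mixed. Creb3l1, a transcription factor of collagen secretion, rose by 0.47 (adjusted p = 0.00384, limma), Sec24d, a coat protein of export vesicles, rose by 0.24 (adjusted p = 0.0223), and Mia3 and Mia2, which load procollagen into vesicles, were at -0.11 and -0.06 without passing. Tmem38b, an ion channel of the endoplasmic reticulum needed for collagen assembly, fell by 0.26 (adjusted p = 0.0461, limma) on the deposited scale, not on that of the poly-A controls, and 2 of its 4 probe sets were lower past the threshold. The calls of Sec24d, Tmem38b and Tll1 were each lost in 5 of the 6 fits that left out an array, with adjusted p of up to 0.0931, 0.126 and 0.125. Loxl4, the remaining lysyl oxidase, had 9.01, 9.05 and 9.05 in CD73+ cells and 9.0, 8.91 and 8.86 in CD73- cells where it was brightest. These arrays did not overlap, but the difference of 0.11 did not pass (adjusted p = 0.265, limma). The second Loxl4 probe set was at 0.26, also without overlap, and did not pass either (adjusted p = 0.0772, limma). That was close to the second Loxl1 probe set, which did not pass at 0.27. Lox, Loxl1 and Loxl3 differed from Loxl4 in passing on their brightest probe sets, a contrast that was not itself tested.

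**Figure D3:**
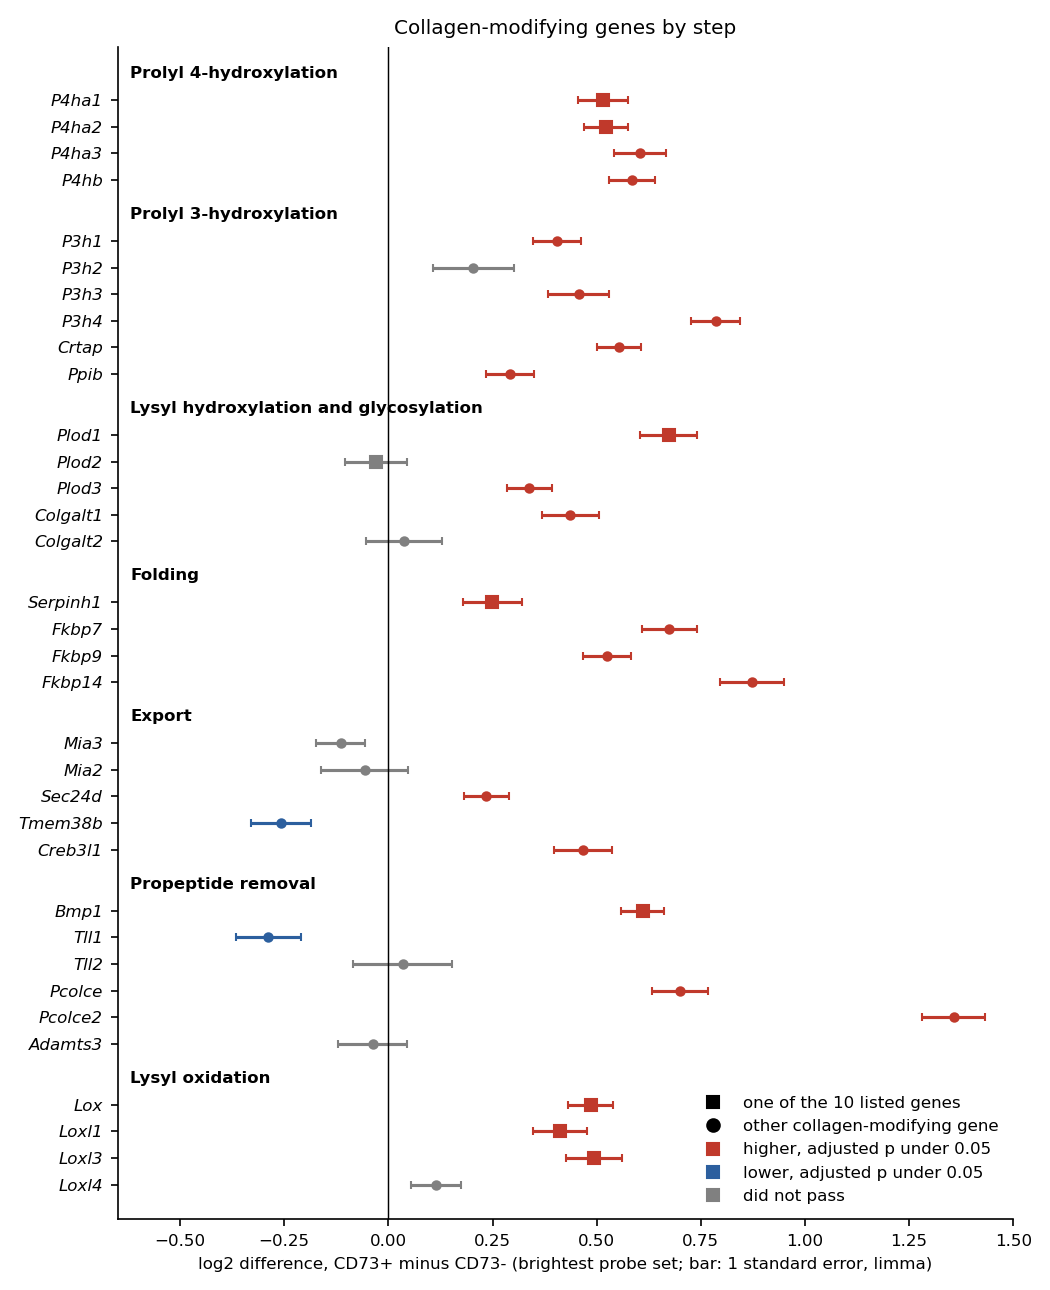
Log2 difference, CD73+ minus CD73- (x axis), of collagen-modifying genes by step, on the brightest probe set of each gene, with bars of 1 standard error from limma. Squares are the listed genes and circles the others. On the deposited scale red marks a rise and blue a fall past the threshold, and grey marks genes that did not pass, among them Plod2 at -0.03.

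The substrates of these enzymes were read beside them. Of 10 chains measured 6 rose and 0 fell, where 10.1% of all genes were higher and 12.6% lower. The median was 0.42 against 0.49 for the 9 enzyme and chaperone genes. Col1a1, a chain of type I collagen, had 11.13, 11.10 and 11.21 in CD73+ cells and 10.28, 10.30 and 10.33 in CD73- cells, a rise of 0.85 (adjusted p = 0.000214, limma). Col3a1, the chain of type III collagen, rose by 0.78 (adjusted p = 0.000341, limma) and Col5a3, a chain of type V collagen, by 0.60 (adjusted p = 0.00116, limma). A second, dim Col5a3 probe set did not pass (0.10, adjusted p = 0.56, limma), while the second probe sets of Col1a1 and Col3a1 were higher. The chains that did not pass, named after their values were seen, were Col2a1 (-0.11), Col5a2 (-0.06), Col11a2 (0.15) and Eln (0.11), and a second probe set of Col5a2 was higher. Elastin, the Eln product and a further substrate of lysyl oxidases, was dim, with 5.63 ± 0.05 in CD73+ cells and 5.52 ± 0.12 in CD73- cells (SD, n = 3 each).

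General chaperones and oxidoreductases of the endoplasmic reticulum, which serve all secreted proteins, moved in both directions. Of 16 measured 8 rose and 3 fell, where 10.1% of all genes were higher and 12.6% lower, and the median was 0.21. The largest rises on the brightest probe sets were those of Pdia4 (0.59), Pdia6 (0.50) and Sdf2l1 (0.49). A second, dim Pdia4 probe set did not pass (-0.08, adjusted p = 0.676, limma), and the second of Pdia6 was higher. The genes that fell on the deposited scale, though not on that of the poly-A controls, were Dnajb9 (-0.49), Ero1a (-0.38) and Hspa5 (-0.38). Hspa5, the gene of the general chaperone BiP, had 12.71, 12.71 and 12.62 in CD73+ cells and 13.06, 13.07 and 13.05 in CD73- cells (adjusted p = 0.00347, limma), lower in CD73+ cells without overlap where Serpinh1 was higher. Ero1a, an oxidase of disulfide formation, has no single direction in these arrays. It fell on its brightest probe set only. Another was higher past the threshold (0.31, adjusted p = 0.0101, limma) and the third was at 0.04 without passing. The mean of its probe sets gave -0.01 (adjusted p = 0.954, limma).

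Genes known to be induced by low oxygen, to which P4ha1, P4ha2, Plod2 and Lox are often counted, were also mixed. Of 15 measured 6 rose and 2 fell, where 10.1% of all genes were higher and 12.6% lower, and the median was 0.22. Pdk1, a kinase that limits entry of pyruvate into mitochondria, rose by 0.93 (adjusted p = 0.000515, limma), Bnip3, a mitophagy receptor, by 0.80 and Ldha, the lactate dehydrogenase subunit, by 0.69. Ero1a and Ndrg1 fell on their brightest probe sets on the deposited scale, but not when scaled to the poly-A controls. Another Ero1a probe set was higher past the threshold. Ndrg1 was lower on all 5 of its probe sets, with 9.97, 9.95 and 10.01 in CD73+ cells and 10.68, 10.68 and 10.62 in CD73- cells on the brightest, a difference of -0.68 (adjusted p = 0.000354, limma). P4ha1, P4ha2 and Lox thus stood with the genes of this list that were higher, and the brightest Plod2 probe set with those that did not pass.

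**Figure D4:**
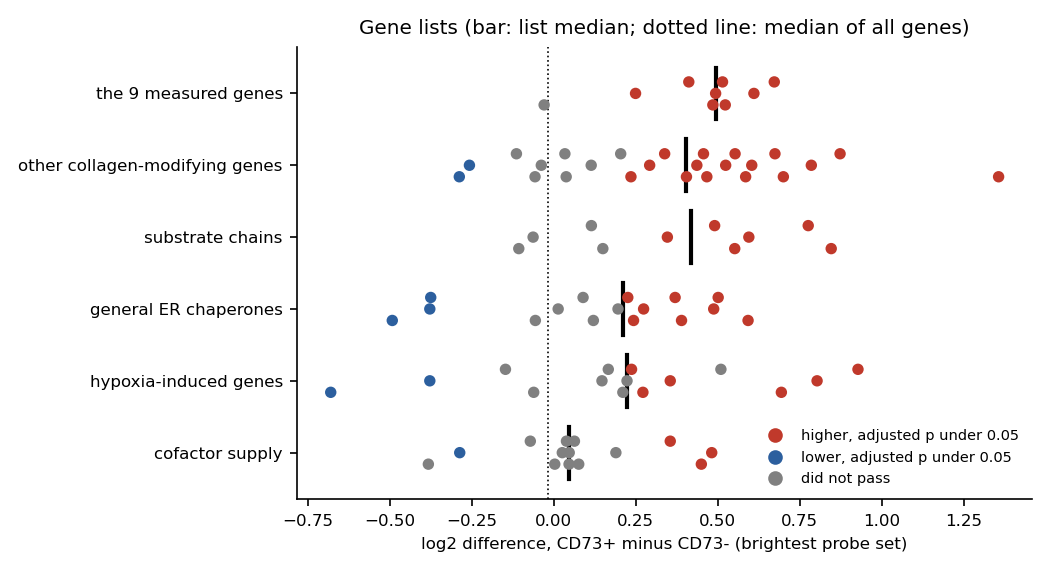
Log2 difference, CD73+ minus CD73- (x axis), of each measured gene in 6 lists (rows), with the list median as a black bar and the median of all genes as a dotted line. Points are genes, red where higher, blue where lower on the deposited scale and grey where they did not pass. The 9 measured genes hold no fall past the threshold and have a median of 0.49.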

How the data were processed

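RNA of sorted mouse AD-MSCs had been hybridised to 6 Affymetrix mouse arrays with 1 colour, 3 of CD73+ and 3 of CD73- cells. The deposited values were log2 signals per probe set, which the authors made with RMA (background correction, quantile normalization and summary of the probes of a set), per the submitters' processing notes. Its version is not given in the sources used here, nor is a genome build. RMA forces the arrays to one distribution, so a change shared by most transcripts cannot be seen in these values. An array has no read depth, and the number of arrays limits the precision.

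Of 45101 probe sets deposited, 64 controls were left out and 45037 were tested. The platform annotation gave 1 gene symbol to 34945, several to 932 and none to 9160. By Entrez number 34741 of those with 1 symbol matched RefSeq, where 0 symbols differed. Each gene was represented by its brightest probe set (highest mean over the 6 arrays), 18193 genes in all. Differences are CD73+ minus CD73-, fitted with limma 3.58.1 (R 4.3.3) with empirical Bayes. P-values were adjusted by Benjamini-Hochberg across the 45037 probe sets, and an adjusted p under 0.05 was called. The methods name one-way ANOVA and Tukey's test for differences between groups, without naming the arrays. Between a pair of groups these come down to an equal-variance t-test, which was run as an alternative and is called the methods' t-test. Ratios of related genes were compared with exact permutation tests (Python 3.11.15).

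The genes of each list, their roles and the tests were chosen with earlier results of these data known. Named were all 10 genes on every probe set of their own, all measured genes of the other collagen-modifying list and, from each further list, at most 3 called genes in each direction, taken by the size of their difference. Cell markers, 4 collagen or elastin chains, Slc31a1 and Slc11a2 were named after their values were seen. Alternatives were another scaling (quantile, median centring, cyclic loess, poly-A controls), a filter on level, other variance models, array weights, a replicate block, the methods' t-test, the mean of a gene's probe sets, a fold limit and leaving out each array. Ratios of related genes on other probe sets were added after the data were seen.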

Additional observations from a re-analysis of the deposited data

How the results depend on the processing

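The number of the 18 probe sets called higher was 13 on the deposited scale, 18 when scaled to the poly-A controls and 10 to 14 under the other settings without a fold limit, and 0 were lower under any of these settings. With each array left out it was 10 to 13 probe sets and 7 to 8 genes. With a fold limit of 0.5 on the log2 scale as well as the adjusted p, 7 probe sets were left. Median centring kept 10 and lost Plod2 1416686_at and both Serpinh1 probe sets. It took the share of calls that were higher to 44.1% over all probe sets, from 51.8% as deposited. Poly-A scaling took that share to 99.9%. Counts of other lists moved too. Median centring took the general chaperones called higher from 8 to 5. The other collagen-modifying genes called lower went from 2 to 1 with quantile normalization and with cyclic loess.

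Scaling to the poly-A controls moved the median of all probe sets by 0.93 and turned every negative difference of a named gene on its brightest probe set to a positive one. The values became 0.90 for Plod2 1416687_at, 0.64 for Gsto1, 0.43 for Dnajb9, 0.55 for Ero1a, 0.55 for Hspa5 and 0.25 for Ndrg1. They became 0.81 for Mia3, 0.87 for Mia2, 0.67 for Tmem38b, 0.89 for Adamts3, 0.64 for Tll1, 0.82 for Col2a1 and 0.86 for Col5a2. This scaling adds the same 0.93 to every difference, so the new signs follow from its size and are no separate result on these genes. Taking the mean of a gene's probe sets turned Tfrc to -0.31 (adjusted p = 0.0073, limma). Reading the ratios of related genes from other probe sets, a choice made after seeing the data, took P4ha1 minus P4ha2 to 0.30 and Lox minus Loxl3 to 0.25, where the brightest probe sets gave -0.01 for each.

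The replicate numbers are in the labels, which do not say that equal numbers share a culture, animal or day. The numbers were therefore not taken to pair the arrays. Deviations of same-numbered arrays from their group means had correlations of -0.14, 0.03 and -0.14 for numbers 1 to 3. With 3 arrays in a group the deviations sum to 0, so these correlations cannot settle whether arrays were paired. With a replicate block 10 of the 18 probe sets and 7 genes were higher, without Plod2 1416686_at (adjusted p = 0.0729, limma), Serpinh1 1450843_a_at (0.0992) and Serpinh1 1456733_x_at (0.0599). Outside the 9 genes the block also ended the calls of Ppib (0.054), Sec24d (0.0748), Tmem38b (0.0658) and Tll1 (0.0796). Loxl1 1436063_at passed with a variance trend (adjusted p = 0.0408, limma) and with array weights (0.0487). The 3 arrays of a group limit what can be resolved for small differences such as that of Serpinh1, and signals near background give compressed differences.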

Other observations

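Genes that supply the cofactors of these enzymes (ascorbate and iron for the hydroxylases, copper for the lysyl oxidases) were read as a further list. On the brightest probe sets 3 of 14 measured rose and 1 fell, where 10.1% of all genes were higher and 12.6% lower. The median difference was 0.05. Slc31a1 and Slc11a2, named after their values were seen, did not pass there. Slc31a1 was higher on its second probe set (0.63, adjusted p = 0.0013, limma). Slc11a2 was higher on 2 of its 4 probe sets (0.61, adjusted p = 0.00133, and 0.43, adjusted p = 0.0144, limma). Atox1, a copper chaperone, averaged 9.90 ± 0.04 in CD73+ and 9.45 ± 0.05 in CD73- cells (SD, n = 3 each) and rose by 0.45 (adjusted p = 0.00203, limma). Of its 4 probe sets 2 were higher and 2 did not pass. Slc2a1, a glucose carrier that also takes up dehydroascorbate, rose by 0.36 on its brightest probe set (adjusted p = 0.00874, limma) and was higher on all 3. Gsto1, which can reduce dehydroascorbate, averaged 12.36 ± 0.04 in CD73+ and 12.65 ± 0.02 in CD73- cells (SD, n = 3 each) and fell by 0.29 (adjusted p = 0.00985, limma). Tfrc, the transferrin receptor, has no single direction in these arrays. Its brightest probe set was higher in CD73+ cells by 0.48 (adjusted p = 0.00124, limma), while its other probe sets had differences of -0.86 (adjusted p = 0.00051, limma) and -0.54 (adjusted p = 0.00113, limma).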
